A study of Mus musculus with 6 samples.

Results

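The kidney sugar transporters studied here were 10 genes of the SGLT and GLUT families, chosen by name and not by their measured values. They were Slc5a1, Slc5a2, Slc5a8, Slc5a9 and Slc5a10 of the sodium-coupled family and Slc2a1, Slc2a2, Slc2a4, Slc2a5 and Slc2a9 of the facilitative family. Of the 10, 9 had a probe set that names them alone, among 22180 genes measured in this way. Slc5a10 shared its only probe set with Fam83g, a gene that lies inside it in the RefSeq annotation, and was therefore not analysed here. RNA came from the kidneys of male C57BL/KsJ mice aged 22 weeks that had entered the study at 10 weeks of age, with 1 Affymetrix array per mouse, 3 of genotype db/db and 3 of genotype db/m. The sample labels call the tissue kidney and the methods call it renal cortex. The db allele disrupts the leptin receptor gene Lepr, db/db mice carry it on both chromosomes and become obese and diabetic, and db/m mice carry a single copy and serve as nondiabetic controls. All cells of the animal carry the mutation, so the kidney itself lacks the long receptor as well. The comparison asked which of these transporters differ between the diabetic and the nondiabetic kidney.

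Glucose filtered in the glomerulus is taken back by the proximal tubule. The sodium-coupled transporter SGLT2 (Slc5a2) in the early tubule recovers most of it and SGLT1 (Slc5a1) in the later segments recovers the remainder, and GLUT2 (Slc2a2) and GLUT1 (Slc2a1) let it leave through the basolateral membrane into the blood. Other members carry related cargo. SGLT4 (Slc5a9) and SGLT5 (Slc5a10) transport mannose and fructose, GLUT5 (Slc2a5) transports fructose, GLUT9 (Slc2a9) transports urate, SMCT1 (Slc5a8) transports lactate and other monocarboxylates, and GLUT4 (Slc2a4) is the insulin-regulated transporter of muscle and fat.

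Signals are on the log2 scale, on which a difference of 1 is a doubling. The difference of a gene between groups is taken within a probe set. Rankings by brightness, ratios and summed signals set different probe sets side by side, and a sum is weighted to its brightest genes. Array medians over all probe sets lay between 3.36 and 3.43, and the median mean signal over the 22180 genes was 4.36. All 9 measured members lay above that gene median, from 5.60 for Slc2a9 to 10.78 for Slc5a2. The signal of Lepr was dim in every array, from 3.54 to 4.28, and since the db mutation alters its splicing this signal does not check the genotype. All 6 proximal tubule markers tested were bright, between 10.73 and 12.17 on average, so the labelled tissue carried RNA of the proximal tubule. These markers do not speak for other cells that express members such as Slc2a4. In whole tissue, fewer cells of a type and less RNA per cell cannot be told apart.

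No member passed limma's moderated test at a Benjamini-Hochberg adjusted p under 0.05 over all genes, where 0.482% of all genes did. None passed the thresholds of the study's methods either, at least 1.5-fold in either direction and p under 0.05 before adjustment, applied here with limma's p, which 1.83% of all genes passed. Slc5a1 missed those thresholds on fold alone, at 1.44-fold. The paper lists Slc5a1 among its upregulated genes, and why the result differs here was not tested. Below those thresholds the members leaned one way. Signals were higher in db/db mice for 8 of the 9 members and lower for Slc5a8, where 11356 of all 22180 genes were higher. For 6 members, Slc5a1, Slc5a2, Slc5a9, Slc2a4, Slc2a5 and Slc2a9, every db/db mouse lay above every db/m mouse. Over all genes this held for 9.17%, and for 13% of the 8160 genes at least as bright as the dimmest member. The same 6 had an unadjusted p under 0.05 from limma and from the methods' t-test, where the shares with a higher signal in db/db mice and such a limma p were 5.92% of all genes and 7.5% of the genes at least as bright. The median difference, db/db minus db/m, was 0.32 over the 9 members and 0.00 over all genes. All members were measured in the same mice, so their signs and separations are not independent results. The methods' t-test called 0 members after adjustment.

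**Figure D1:**
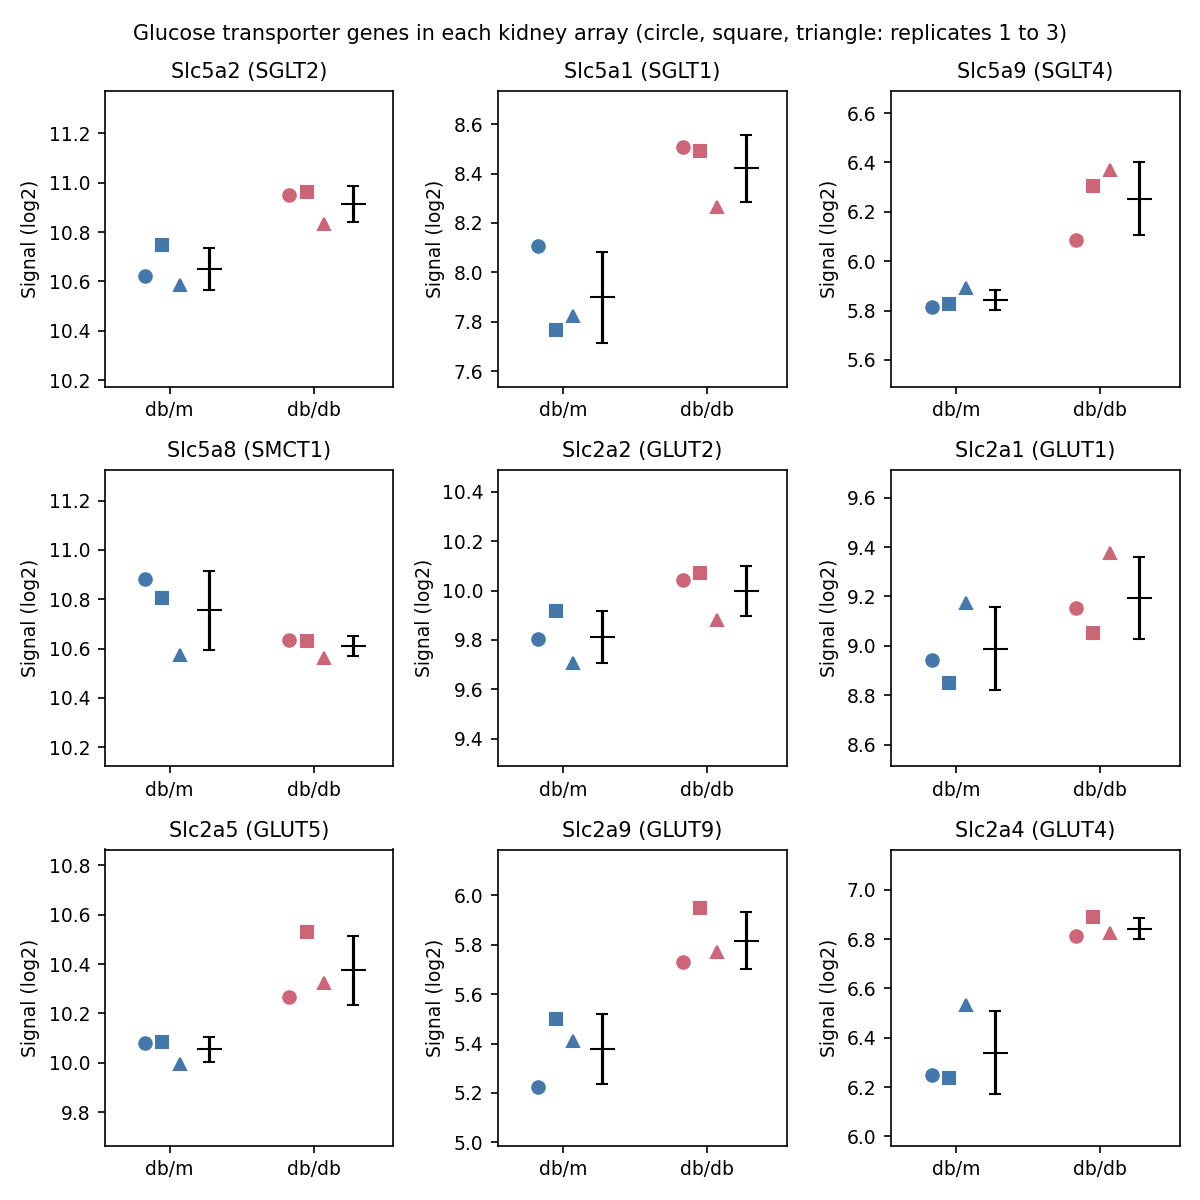
Log2 signal (vertical axes, each spanning the same 1.2 units) of the 9 measured members in each array. Circles, squares and triangles are replicates 1 to 3, which are not paired between groups, and black bars show the mean and SD of the 3 mice. The groups are separated for Slc5a2, Slc5a1, Slc5a9, Slc2a5, Slc2a9 and Slc2a4 and overlap for Slc5a8, Slc2a2 and Slc2a1.

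RefSeq promoter windows of GRCm38.p6, from 250 bases before a transcript start to 50 after it, were held for 7 of the 10 members, with 2 windows for Slc5a10. Promoter sequence is shown for Slc5a1 and Slc2a5, whose db/db and db/m signals did not overlap. Searched on both strands were GTTAAT, an arm of the palindrome bound by HNF1 factors, which drive Slc5a2 in the mouse kidney, CACGTG, the E-box bound by ChREBP and other factors, and GGGCGG, the GC box bound by SP1. The E-box stood in the window of Slc5a1 alone, starting 143 bases before the start, and in 7.15% of all 32851 windows. GC boxes stood in the windows of Slc2a1, Slc2a5 and Slc5a8, and in 35.7% of all windows. The HNF1 letters stood in 1 of the 2 Slc5a10 windows and in 7.1% of all windows. A match is only a run of letters, and a window without one says nothing about the factor. Of the members with separate groups, only Slc5a1, Slc2a5 and Slc2a9 had a window, and these held none of the searched motifs in common. No window was held for Slc5a2, Slc5a9 and Slc2a4, so nothing can be said of them. In the window of Slc5a1 on the plus strand (chr5:33103969-33104268) the capitals mark the E-box, and in that of Slc2a5 on the plus strand (chr4:150119094-150119393) they mark 3 GC boxes read on the opposite strand, of which 2 adjoin without overlap.
Slc5a1: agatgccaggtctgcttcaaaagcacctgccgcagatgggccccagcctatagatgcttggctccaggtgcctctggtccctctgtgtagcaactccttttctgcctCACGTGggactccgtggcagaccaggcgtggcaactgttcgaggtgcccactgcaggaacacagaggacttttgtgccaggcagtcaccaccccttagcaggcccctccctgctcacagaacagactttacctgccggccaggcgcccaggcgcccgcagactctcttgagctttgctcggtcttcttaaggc
Slc2a5: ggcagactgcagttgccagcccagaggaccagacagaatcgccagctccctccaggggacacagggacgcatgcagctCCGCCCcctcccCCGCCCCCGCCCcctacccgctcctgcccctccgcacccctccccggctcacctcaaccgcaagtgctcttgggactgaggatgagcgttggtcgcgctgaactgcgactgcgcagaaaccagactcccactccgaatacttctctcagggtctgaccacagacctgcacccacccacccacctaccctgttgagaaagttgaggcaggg

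Of the apical glucose transporters, Slc5a2, which encodes SGLT2, had signals of 10.62, 10.75 and 10.59 in db/m mice and 10.95, 10.96 and 10.83 in db/db mice. The groups did not overlap, but the lowest db/db mouse was only slightly above the highest db/m mouse. The difference was 0.26 on the log2 scale (standard error 0.10, 1.20-fold), with an adjusted p of 0.403. Its 95% interval ran from 0.03 to 0.49, which is 1.02-fold to 1.41-fold. When an array was left out, the difference of Slc5a2 ranged from 0.23 to 0.31. Its unadjusted limma p then ranged from 0.030 to 0.089, so the p under 0.05 depended on which array was left out. Slc5a1, which encodes SGLT1, had 8.11, 7.77 and 7.82 in db/m mice and 8.51, 8.49 and 8.27 in db/db mice. Every db/db mouse was above every db/m mouse, and the closest pair were db/m replicate 1 and db/db replicate 3. At 0.52 (standard error 0.13, 1.44-fold, 95% interval 0.24 to 0.81) this was the largest difference among the 9 members, with an adjusted p of 0.151. It was 0.63 when db/m replicate 1 was left out and 0.60 when db/db replicate 3 was, both past 1.5-fold, with adjusted p values of 0.158 and 0.206.

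Whether SGLT1 differed more than SGLT2 was examined within arrays, with the ratio of their signals. The log2 ratio of Slc5a1 to Slc5a2 was -2.51, -2.98 and -2.76 in db/m mice and -2.44, -2.47 and -2.57 in db/db mice. The groups overlapped. The ratio was 0.26 higher in db/db mice (exact permutation test, two-sided p = 0.2, where 0.1 is the smallest that 3 mice against 3 allow). A larger difference for SGLT1 than for SGLT2 was therefore not shown. The level of a ratio depends on the probes, and only its change between groups can be read. This ratio and those of Slc5a2 to Pdzk1ip1 and to the proximal tubule markers were chosen after the values were seen.

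SGLT2 needs the small membrane protein MAP17, encoded by Pdzk1ip1, for full activity. Pdzk1ip1 had signals of 10.88, 10.97 and 10.98 in db/m mice and 10.99, 11.02 and 10.85 in db/db mice, a difference of 0.01 (95% interval from limma -0.22 to 0.24, adjusted p = 0.977). The log2 ratio of Slc5a2 to Pdzk1ip1 was -0.26, -0.22 and -0.40 in db/m mice and -0.05, -0.06 and -0.02 in db/db mice. These groups did not overlap, and the change was 0.25 (exact permutation test, two-sided p = 0.1, the smallest the design allows). Against the mean of the 6 proximal tubule markers, Slc5a2 was likewise higher in every db/db mouse, by 0.29 on average (exact permutation test, two-sided p = 0.1). The mean of these markers was 11.30 ± 0.03 (SD, n = 3) in db/m mice and 11.27 ± 0.02 (SD, n = 3) in db/db mice. Pdzk1ip1 and the marker mean differed little between groups. Both ratios therefore largely restate the difference of Slc5a2 and are not separate evidence for it.

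Among the transporters of other sugars on the apical side, Slc5a9 (SGLT4) had a narrow range in db/m mice, with signals of 5.82, 5.83 and 5.89, and had 6.09, 6.30 and 6.37 in db/db mice. All db/db mice were above all db/m mice. The difference was 0.41 (standard error 0.11, 1.33-fold, adjusted p = 0.199). Slc2a5 (GLUT5), which takes up fructose, had 10.08, 10.09 and 9.997 in db/m mice and 10.27, 10.53 and 10.33 in db/db mice. The groups were again separate, with db/db replicate 2 the highest. Its difference was 0.32 (standard error 0.11, 1.25-fold, adjusted p = 0.323), and without db/db replicate 2 it was 0.24.

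The transporters of the basolateral exit overlapped between groups. Slc2a2 (GLUT2) had signals of 9.81, 9.92 and 9.71 in db/m mice and 10.04, 10.07 and 9.88 in db/db mice. Only db/db replicate 3 lay below a db/m mouse, replicate 2. The difference was 0.19 (standard error 0.11, adjusted p = 0.587, 95% interval -0.06 to 0.43), so the data leave room for anything from a slightly lower level to one 1.35-fold higher. In both groups Slc2a2 and Slc5a2 placed the mice in the same order, with replicate 2 highest and replicate 3 lowest. Slc2a1 (GLUT1) had 8.94, 8.85 and 9.17 in db/m mice and 9.15, 9.05 and 9.38 in db/db mice. Here db/m replicate 3 was above 2 of the 3 db/db mice. The difference was 0.21 (standard error 0.13, adjusted p = 0.622, 95% interval -0.09 to 0.50), and it moved to 0.30 when db/m replicate 3 was left out and to 0.11 when db/db replicate 3 was. A dimmer probe set also names Slc2a1 alone. It had a mean signal of 3.97, below the gene median, and a difference of -0.019 (adjusted p = 0.972), so the direction for Slc2a1 rests on the brighter probe set.

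Slc2a4 encodes GLUT4, which insulin brings to the surface of muscle and fat cells. Its signals were 6.25, 6.24 and 6.53 in db/m mice and 6.81, 6.89 and 6.82 in db/db mice. The db/db mice lay close together and above every db/m mouse. The difference was 0.50 (standard error 0.11, 1.42-fold, 95% interval 0.24 to 0.76), and its adjusted p of 0.131 was the lowest of the 9 members. Without db/m replicate 3 it was 0.60, past 1.5-fold, with an adjusted p of 0.0863. Markers of the cell types best known for GLUT4 are given beside it, and their part in the signal of Slc2a4 was not tested. Of 6 measured white adipocyte markers, 5 lay below the gene median and 5 had a lower mean in db/db mice (list median -0.33), with 0 calls by limma or the methods' t-test, and the fat hormone gene Adipoq had 2.68, 3.07 and 2.89 in db/m mice and 2.75, 2.49 and 2.66 in db/db mice. The summed signal of the adipocyte markers, as its log2, ranged from 5.85 to 7.36 in db/m mice and from 6.21 to 6.65 in db/db mice. The highest sum came from db/m replicate 2, where the adipocyte genes Cidec and Retn had 5.53 and 5.57 against at most 3.61 in the other arrays. Plin4, the adipocyte marker above the gene median, was the one with a higher mean in db/db mice, with separate groups and a difference of 0.91 (1.87-fold, adjusted p = 0.242) that was past the study's thresholds. All 6 skeletal muscle markers lay below the gene median, with summed signals of 5.79 to 5.84 in db/m mice and 5.78 to 5.83 in db/db mice.

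Slc2a9 encodes GLUT9, a urate transporter of the tubule. Its signals were 5.22, 5.50 and 5.41 in db/m mice and 5.73, 5.95 and 5.77 in db/db mice. The groups did not overlap. The difference was 0.44 (standard error 0.12, 1.36-fold, adjusted p = 0.19). Other urate genes leaned the other way. In the list of urate transport and breakdown, 8 of 10 differences were negative with a median of -0.22, where limma called 0 genes after adjustment, and before adjustment 1 was higher and 3 were lower with p under 0.05. The methods' t-test called 0. The brightest of the list, the anion transporters Slc22a8 and Slc22a6, had differences of 0.12 (adjusted p = 0.721) and -0.28 (adjusted p = 0.416). Named after their values were seen, the urate exit transporter Slc17a3 and the urate reabsorption transporter Slc22a12 (URAT1) had differences of -0.58 (adjusted p = 0.151) and -0.45 (adjusted p = 0.26). Xdh, also named after its values were seen, was the gene that was higher before adjustment. It had a difference of 0.34 (adjusted p from limma 0.304) between groups that did not overlap. Uox and Urad, among the negative differences, had mean signals of 1.97 and 3.06, below the gene median.

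Slc5a8, which carries lactate and pyruvate with sodium, was the only member with a lower mean in db/db mice. Its signals were 10.88, 10.81 and 10.57 in db/m mice and 10.64, 10.63 and 10.56 in db/db mice. The groups overlapped because db/m replicate 3 lay within the range of the db/db mice. The difference was -0.14 (standard error 0.11, adjusted p = 0.7, 95% interval -0.40 to 0.11), and it ranged from -0.08 (adjusted p = 0.87) when db/m replicate 1 was left out to -0.23 (adjusted p = 0.435) when db/m replicate 3 was. Its relative Slc5a12 (SMCT2), another lactate carrier of the proximal tubule, had 10.87, 11.15 and 10.40 in db/m mice and 11.16, 11.12 and 11.22 in db/db mice. For Slc5a12, db/m replicate 3 was the lowest array, and the difference was 0.35 (adjusted p = 0.517). Among 10 genes of monocarboxylate transport, limma called 0, before adjustment 1 was higher and 1 lower with p under 0.05, the methods' t-test called 0, and the median difference was 0.02. Slc16a1 (MCT1), the gene of the list that passed the study's thresholds, had 7.98, 8.58 and 9.19 in db/m mice and 7.97, 7.71 and 8.10 in db/db mice, a difference of -0.66 (adjusted p = 0.402) between overlapping groups. The brightest of the list, the MCT1 partner Bsg and lactate dehydrogenase B (Ldhb), had differences of 0.06 and 0.02.

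**Figure D2:**
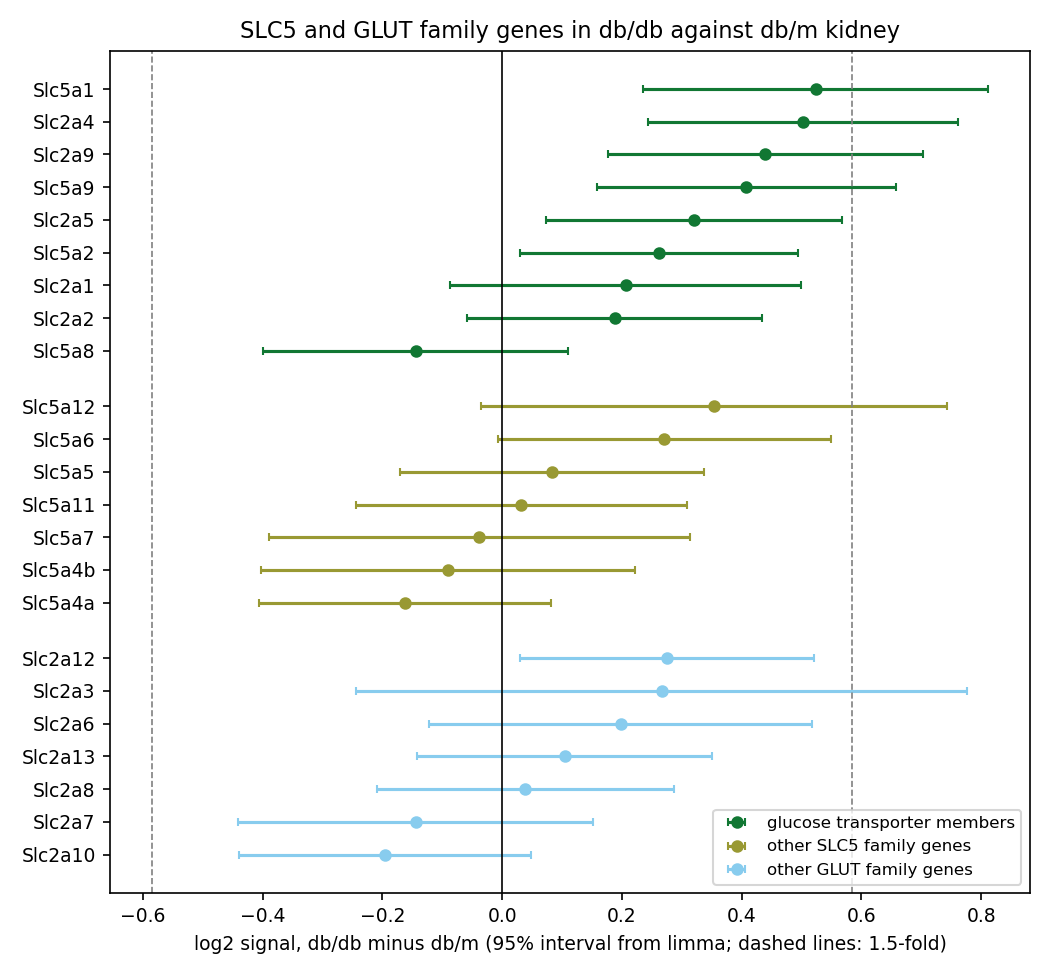
Difference in log2 signal, db/db minus db/m, on the horizontal axis for the 9 members (green) and the other measured genes of the SLC5 (olive) and GLUT (light blue) families, with 95% intervals from limma and dashed lines at 1.5-fold. Intervals of 6 members and of Slc2a12 lie above 0 before adjustment, and the point estimates all lie within 1.5-fold.

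The other genes of both families gave no call. Of 7 other GLUT genes, limma called 0 after adjustment, and before it 1 was higher and 0 were lower with p under 0.05, with a median difference of 0.10. That gene was Slc2a12 (GLUT12), which had 5.87, 5.74 and 5.65 in db/m mice and 5.92, 6.11 and 6.05 in db/db mice, a difference of 0.28 (adjusted p = 0.406). Slc2a8 (GLUT8), an intracellular sugar transporter, had a difference of 0.04 (adjusted p = 0.929). Of 7 other SLC5 genes limma called 0, also at an unadjusted p under 0.05, and their median was 0.03. Slc5a11 (SMIT2), a carrier of inositol and glucose, had a difference of 0.03 (adjusted p = 0.949). The methods' t-test called 0 genes of either list after adjustment. Of these 14 genes, 7 had a mean signal under the gene median, which limits what could be seen for them.

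Genes that act on these transporters mostly differed little. Among 8 measured partners and regulators of SGLT2 and SGLT1, the median difference was 0.06 and limma called 0, with 1 higher at an unadjusted p under 0.05. That gene was Sgk1, a kinase induced by aldosterone and glucocorticoids that raises the activity of SGLT1 and of sodium channels. It had 8.01, 7.87 and 7.52 in db/m mice and 8.39, 8.25 and 8.94 in db/db mice. The groups did not overlap, and the difference of 0.72 (standard error 0.19, 1.65-fold, adjusted p = 0.19) was past the study's thresholds. Atp1b1, a subunit of the sodium pump that drives these carriers, had a difference of 0.17 (adjusted p = 0.586). Among 10 regulators of GLUT1 and GLUT4, limma called 0, with 2 higher at an unadjusted p under 0.05, and the median was 0.06. Those were Arrdc4, a relative of Txnip, with a difference of 0.40 (adjusted p = 0.199), and Hif1a, a hypoxia-regulated factor that induces Slc2a1, with 0.35 (adjusted p = 0.33). Both had groups that did not overlap and were named after their values were seen. Txnip, a glucose-induced arrestin that removes GLUT1 from the cell surface, had 9.79, 10.13 and 10.35 in db/m mice and 10.13, 9.74 and 10.30 in db/db mice. Its groups overlapped fully and its difference was -0.04 (95% interval -0.44 to 0.37, adjusted p = 0.962). The trafficking protein gene Rab10 had a difference of 0.05 (adjusted p = 0.912). The methods' t-test called 0 genes of both lists after adjustment.

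Enzymes that use or release hexoses were also without a call from limma or the methods' t-test. The list held 12 genes, of which 9 of hexose phosphorylation and gluconeogenesis were measured, and its polyol genes Akr1b3 and Sord were not analysed here. Of the 9, 1 was higher and 0 were lower by limma with p under 0.05 before adjustment, and the median difference was 0.08. The gluconeogenic genes Fbp1 and G6pc had differences of 0.07 (adjusted p = 0.856) and 0.13 (adjusted p = 0.736). Hk1, a hexokinase named after its values were seen, had 6.93, 6.81 and 6.75 in db/m mice and 7.20, 7.09 and 7.40 in db/db mice. Its groups did not overlap, with a difference of 0.40 (adjusted p = 0.229).

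**Figure D3:**
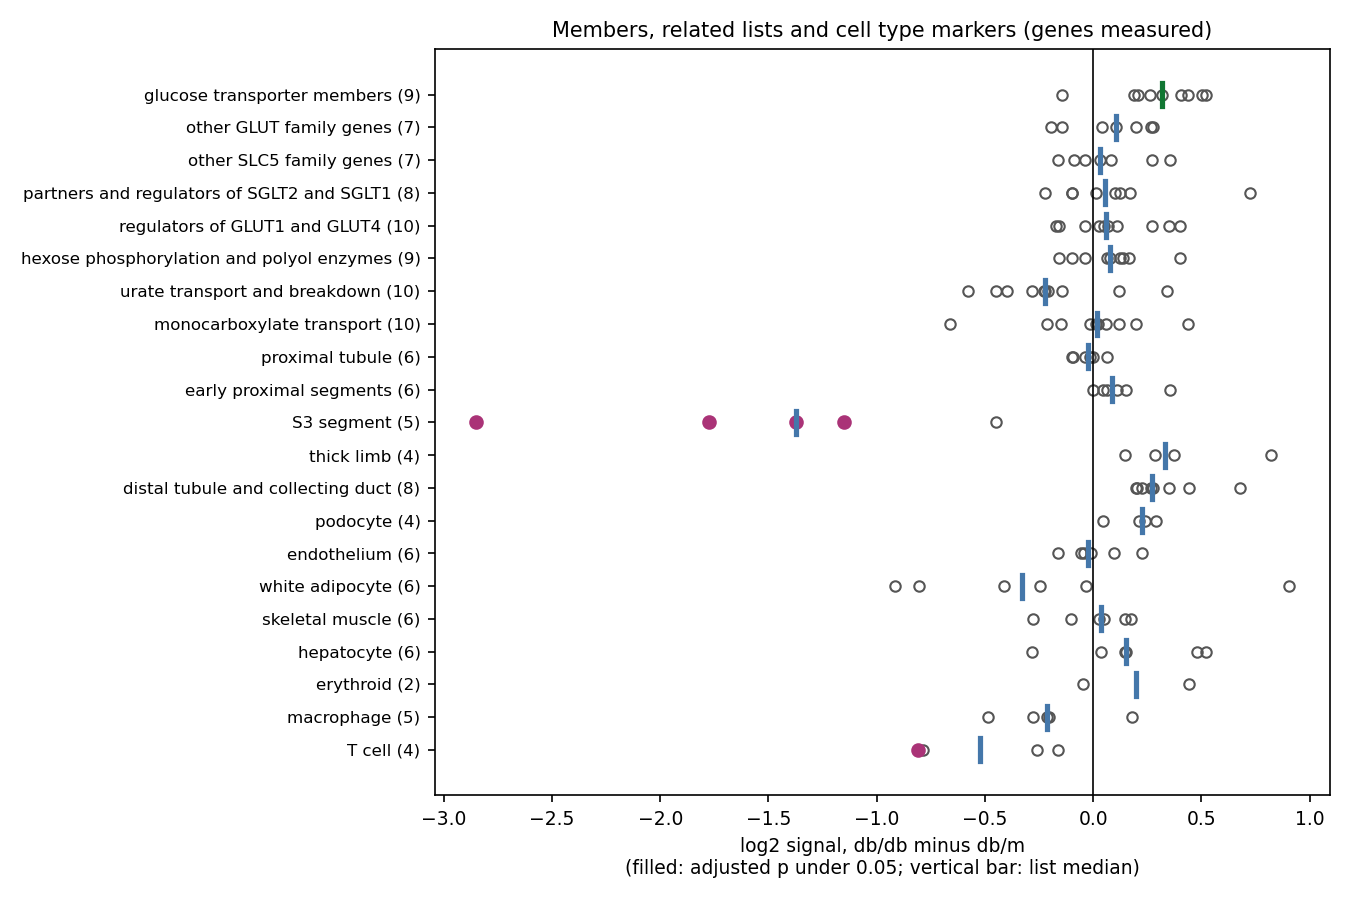
Difference in log2 signal, db/db minus db/m, on the horizontal axis for each measured gene (circle) of the members, the 7 related lists and the cell type marker lists, with the number of genes in brackets. Filled circles passed an adjusted p under 0.05 and vertical bars are list medians, at 0.32 for the members and -1.37 for the S3 markers.

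Of the marker lists for nephron segments, only that of the S3 segment held genes called by limma. The proximal tubule list held 0 calls in 6 genes, with a median difference of -0.03 and summed signals, as their log2, of 13.97 to 14.02 in db/m mice and 13.96 to 13.99 in db/db mice. For 6 markers of the early proximal segments, where SGLT2 works, 6 of 6 differences were positive, from 0.00 to 0.35, with a median of 0.09, 0 calls and summed signals of 13.72 to 13.86 and 13.84 to 13.89. Markers of the S3 segment, where SGLT1 and GLUT1 work, were far lower in db/db mice. Of 5, 4 fell by limma (Slc7a13, Cyp7b1, Atp11a and Slc22a19; 0 by the methods' t-test after adjustment), with a median of -1.37 and summed signals of 12.31 to 12.51 in db/m mice and 10.87 to 11.13 in db/db mice. The signals of Slc5a1 and Slc2a1 did not follow them, with differences of 0.52 and 0.21. The S3 list, like the others, was chosen with earlier results of these data known. Its lower signals do not tell fewer S3 cells from less RNA of these genes per cell. Thick limb markers were higher in 4 of 4 genes (median 0.33, summed 12.10 to 12.24 against 12.28 to 12.53) and markers of distal tubule and collecting duct in 8 of 8 (median 0.27, summed 11.92 to 12.11 against 12.38 to 12.49). Limma called 0 of these 12, with 3 and 3 higher at an unadjusted p under 0.05, and 1 of each list was past the study's thresholds, Ptger3 (difference 0.82, adjusted p = 0.119) and Calb1 (difference 0.68, adjusted p = 0.135). Podocyte markers were higher in 4 of 4 (median 0.23, summed 9.29 to 9.45 against 9.52 to 9.62), also with 0 calls, and 6 endothelial markers had a median of -0.03 and overlapping sums (10.89 to 10.99 against 10.91 to 11.02). Of the blood and liver lists, hepatocyte markers had a median of 0.15 with 0 calls in 6 genes and summed signals of 10.14 to 10.26 against 10.67 to 10.72. Apob (difference 0.52, mean signal 9.87) and Alb (difference 0.48, mean signal 8.53) make up most of that sum. Before adjustment 2 hepatocyte markers were higher and 1, Cps1 (difference -0.28, mean signal 3.17), was lower with a limma p under 0.05. The 2 measured erythroid markers had a median of 0.20 with 0 calls (summed 6.73 to 7.004 against 6.92 to 7.66). They were Slc4a1 (difference 0.44, mean signal 6.96) and Epb42 (difference -0.05, mean signal 2.79). Slc4a1, which makes up most of the sum, is also in the list of distal tubule and collecting duct, so these values do not single out erythroid cells. Macrophage markers had a median of -0.21 with 0 calls in 5 genes (summed 7.70 to 7.77 against 7.34 to 7.53), and of 4 T cell markers 1, Cd3e, fell by limma, with a median of -0.52 (summed 5.99 to 6.29 against 5.38 to 5.53). The part of these marker differences in the signals of the members was not tested.

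As a description of which genes followed the members over the 6 arrays, Pearson's r was ranked among 11089 genes brighter than the gene median. Slc5a2 was most like Stap1 (r = 0.997), Cavin2 (r = 0.996) and Bace1 (r = 0.994). Slc2a4, the member with the lowest p, was most like Sox12, Man2b2 and Cln3, with r of 0.995, 0.994 and 0.993. With 6 arrays in 2 groups and so many genes compared, high values arise easily, and none of these 6 genes passed limma's test after adjustment.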

How the data were processed

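Kidney RNA (100 ng per array) of 3 db/db and 3 db/m mice was hybridized to Affymetrix arrays. The authors deposited 1 table of log2 signals for 41345 probe sets, made by RMA in Affymetrix Expression Console according to the submitters' processing notes, with versions, filters and genome build not given in the sources used here. RMA corrects the background of each array and normalizes the arrays together, and differences of dim genes can be compressed in its signals. The probe-set annotation matching the table's identifiers is of another Affymetrix array than the methods name. Each gene was represented by its brightest probe set naming it alone.

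The difference, db/db minus db/m, was fitted per gene without covariates by limma (version 3.58.1, run under R 4.3.3), and its two-sided p values were adjusted by Benjamini-Hochberg over 22180 genes. With 3 mice per group the precision is limited. Replicate numbers did not pair the mice: deviations of same-numbered arrays correlated at 0.04, -0.05 and -0.08. The members and gene lists were chosen with earlier results of these data known. Named were all members, and of each related list the called genes, those past the study's thresholds and the 2 brightest others. Genes outside this rule are marked. The fit was tested on simulated data, where it recovered 28.8% of 1.5-fold and 77.9% of 2-fold changes at an adjusted p under 0.05. All member differences were under 1.5-fold, so the lack of a call does not show that a member was unchanged. Alternatives were other normalization, scaling, filter, moderation, test, probe sets, a replicate block, a looser threshold and each array left out. Centring on proximal tubule markers was chosen after seeing the data.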

Additional observations from a re-analysis of the deposited data

How the results depend on the processing

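No member was called at an adjusted p under 0.05 in any of the alternatives run. All 126 recomputed member differences from settings that used the same or averaged probe sets kept their sign, but much of this was fixed in advance. The filter, moderation, test and replicate block change only the p, and averaging probe sets changed only Slc2a1. Leaving out an array cannot turn the sign of the 6 members whose groups did not overlap. The count is therefore little evidence that the differences hold. The dimmer Slc2a1 probe set turned the sign, to -0.019 against 0.21, and the mean of both gave 0.09. Members higher at an unadjusted p under 0.05 numbered 6, and 4 to 6 when an array was left out, with 4 without db/db replicate 2. Members lower at that p numbered 0, and 0 to 1 when an array was left out (Slc5a8 without db/m replicate 3). Members past the study's thresholds numbered 0, and 0 to 1 when an array was left out (Slc5a1 without db/m replicate 1 or db/db replicate 3, Slc2a4 without db/m replicate 3). Over all genes, 107 were called, against 2 with the methods' t-test, 61 with the replicate block, 193 at an adjusted p under 0.1, and 28 to 69 when an array was left out (39, 69 and 30 without db/m replicates 1, 2 and 3, and 28, 51 and 42 without db/db replicates 1, 2 and 3). Fewer arrays leave fewer degrees of freedom, and the cause of the other shifts was not tested. The replicate block changed no call of a member. Signals near the background limit what can be said of the dimmer family genes.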
